A study of Mus musculus with 72 samples.

Results

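Il10, Il12a, Il12b, Il23a, Il27 and Ebi3 encode an immunosuppressive cytokine and the subunits of the heterodimeric IL-12 family. These 6 genes were taken by symbol from the deposited TPM values (a transcript level scaled for transcript length and library total) of 72 libraries, 3 in each of 24 groups. Of the 18472 genes listed in any of the 3 tables, the table of marrow-derived macrophages listed 5 of the 6 (all but Il10) among 9179 genes. The table of RAW264.7 cells with dexamethasone listed Il27 and Ebi3 among 8983 genes, and the table of RAW264.7 cells with interferon beta listed all but Il12a among 18254 genes. A member that a table does not list is not analysed here for those cells.

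The study looked at loss of Setd1b or Setd1a, methyltransferases of histone H3 lysine 4 at promoters, in mouse macrophages given lipopolysaccharide (LPS, a bacterial cell wall component) and the synthetic glucocorticoid dexamethasone (Dex). Bone marrow of female C57BL/6J mice (per the sample labels, while the growth protocol speaks of male animals) was differentiated for 7 days with a supernatant that supplies M-CSF and GM-CSF. These cells, either labelled Setd1bKO or serving as control, received 1 uM Dex for 16 h with 100 ng/ml LPS for 6 h (Dex+LPS), LPS for 6 h after vehicle, or 0.1% ethanol vehicle for 16 h. The control cells are titled wild type but carry the genotype label Setd1bHet. The sources used here do not say how the deletion was driven or how old the mice were. RAW264.7 is a macrophage line from a male BALB/c mouse, used as Setd1aDel/+ cells, which keep an intact copy of Setd1a, and as wild type. Whether the Setd1aDel cells are a single clone is not stated. In a 16 h experiment they had the same treatments as the marrow cells. In a 6 h experiment Dex or vehicle lasted 6 h, and a group with Dex alone was added. In a further experiment LPS for 6 h was given with or without 10 ng/ml interferon beta (IFNB1).

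Interleukin 10 is the main cytokine by which activated macrophages restrain their own inflammatory output, through its receptor and STAT3. The others pair up: Il12a and Il12b give IL-12, which drives type 1 helper T cells, Il23a shares Il12b in IL-23, which sustains IL-17-producing T cells, and Il27 pairs with Ebi3 in IL-27, which has both activating and restraining effects on T cells. Toll-like receptor ligands such as LPS induce these subunits in macrophages and dendritic cells, mainly through NF-kB and interferon regulatory factors, and glucocorticoids are known inhibitors of Il12a and Il12b. What a macrophage secretes depends on the supply of both partners, so the levels of paired subunits are given side by side.

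All positions are on GRCm38 (GENCODE vM21) and are whole protein-coding genes. Il10 lies at chr1:131019845-131024974 (+ strand), Il12a at chr3:68690644-68698547 (+), Il12b at chr11:44400063-44414033 (+), Il23a at chr10:128296139-128298752 (-), Il27 at chr7:126589010-126594941 (-) and Ebi3 at chr17:55952640-55957022 (+). Il27 overlaps Apobr on the opposite strand, and Ebi3 overlaps the antisense gene Gm16712. The library kit keeps strand, but the sources used here do not say whether the counting used it, so reads of overlapping partners cannot be told apart. Promoter sequences in RefSeq (GRCm38.p6) were at hand for Il12a, Il12b and Ebi3, and the 250 bases before a start are shown because Il12a and Il12b moved together under Dex while Ebi3 did not follow them. Capitals mark a match to the NF-kB motif. The windows are chr11:44399813-44400062 for Il12b, chr3:68690394-68690643 for the first start of Il12a and chr17:55952373-55952622 for Ebi3, all on the + strand.
Il12b: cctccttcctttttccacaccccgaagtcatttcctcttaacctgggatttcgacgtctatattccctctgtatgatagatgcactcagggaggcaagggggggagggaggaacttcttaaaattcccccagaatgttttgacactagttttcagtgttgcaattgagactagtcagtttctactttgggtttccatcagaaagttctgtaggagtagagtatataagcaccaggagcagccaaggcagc
Il12a: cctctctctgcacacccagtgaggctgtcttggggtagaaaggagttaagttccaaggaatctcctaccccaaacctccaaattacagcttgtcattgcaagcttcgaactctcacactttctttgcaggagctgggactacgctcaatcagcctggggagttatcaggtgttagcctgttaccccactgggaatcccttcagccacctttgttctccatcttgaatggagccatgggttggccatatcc
Ebi3: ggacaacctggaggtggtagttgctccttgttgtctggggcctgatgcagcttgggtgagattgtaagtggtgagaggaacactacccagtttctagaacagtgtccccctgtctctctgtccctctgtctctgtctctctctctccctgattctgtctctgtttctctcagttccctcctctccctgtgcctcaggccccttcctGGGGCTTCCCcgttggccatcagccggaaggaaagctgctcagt
The sequences were searched on both strands for the TATA box TATAAA, AP-1 TGANTCA, the NF-kB motif, the interferon-stimulated response element, the STAT motif TTCNNNGAA, C/EBP TTGCNNAA and the full glucocorticoid response element. The only match was NF-kB in Ebi3, 44 to 35 bases before the start. Among 32851 promoter windows of this length, 7.25% held the NF-kB motif, 12.4% the TATA box, 6.75% AP-1, 2.98% the interferon-stimulated response element, 7.02% the STAT motif, 9.56% C/EBP and 0.00913% the full glucocorticoid response element. The letters of the other motifs were not in these windows, nor in the window before the second start of Il12a. Only exact letters were searched, so sites that depart from them, within these windows too, were missed. The absence of a match says nothing of such sites or of binding elsewhere.

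TPM summed to between 837032 and 912839 per library over the listed genes. No libraries held identical values, and the lowest correlation between replicates was 0.9885 (Pearson r of log2(TPM + 1)). The counts behind the TPM values are not analysed here, so the depth is unknown and no counting error is given. The series names its replicates biological but ties none to a mouse or a culture, so p-values measure the spread between libraries, which may be technical. Of 10 macrophage markers, 10, 9 and 10 were listed in the marrow, Dex and IFNB1 tables. Their sum was lower in libraries labelled Setd1bKO (17775 to 25926 TPM) than in control libraries (26226 to 40127 TPM). No T, B, NK or fibroblast marker was listed in the marrow or Dex tables. In the IFNB1 table the sums were 5.4 to 19.5 TPM for T cells, with Cd4 and Cd8a at 0, 4.2 to 15.9 TPM for dendritic cells, with Flt3 and Ccr7 at 0, and 2.8 to 12.9 TPM for neutrophils, with Elane at 0. B cell markers summed to 0.1 to 1.1 TPM there. Setd1a averaged 11.8 to 24.7 TPM in the Setd1aDel groups and 15.6 to 39.0 TPM in the wild-type groups, and was lower on average in Setd1aDel cells under every matched treatment. Setd1b was not lower in the libraries labelled Setd1bKO, with 10.1 ± 0.359 TPM under vehicle against 4.54 ± 0.681 TPM in control, 7.51 ± 1.89 against 6.45 ± 1.80 TPM under LPS, and 6.40 ± 1.70 against 5.77 ± 1.67 TPM under Dex+LPS (SD, n = 3 each). The sources used here do not name the exons removed, and a TPM summed over a gene need not show them. Every genotype direction in the marrow cells below therefore refers to the labels.

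LPS raised all 5 listed subunit genes in marrow-derived macrophages of both labels. Il12b, the subunit shared by IL-12 and IL-23, was the most abundant under LPS. It reached 1370, 1373 and 1342 TPM in LPS-treated libraries labelled Setd1bKO, against 0.967, 1.47 and 1.55 TPM with vehicle. In control cells it reached 1179, 1302 and 1210 TPM with LPS, against 1.60, 1.03 and 1.52 TPM with vehicle. Il27 stood at 501, 542 and 467 TPM with LPS, against 1.41, 1.19 and 1.23 TPM with vehicle, in libraries labelled Setd1bKO. Control cells had 972, 949 and 980 TPM of Il27 with LPS, against 1.86, 0.972 and 1.53 TPM with vehicle. Ebi3, the partner of Il27, differed from the other members in being expressed at rest. Its level was 162, 169 and 156 TPM with LPS, against 31.8, 32.7 and 33.1 TPM with vehicle, in libraries labelled Setd1bKO. In control cells it was 235, 213 and 229 TPM with LPS, against 34.5, 34.8 and 36.6 TPM with vehicle.

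The changes over vehicle were tested with limma on log2(TPM + 1), fitted to all genes of an experiment with Benjamini-Hochberg adjustment, and called at an adjusted p under 0.05. On this scale the LPS rise in libraries labelled Setd1bKO was 9.20 ± 0.10 (SE) for Il12b, 7.79 for Il27, 6.73 for Il23a, 6.72 for Il12a and 2.28 for Ebi3, and in control cells 9.02 for Il12b, 8.64 for Il27, 7.16 for Il12a, 4.19 for Il23a and 2.64 for Ebi3. All 5 were called in both, where 24.9% of all tested genes were called higher in libraries labelled Setd1bKO and 20.6% in control. The pseudocount of 1 shortens changes from resting levels near 0, and the rise of Il23a in control cells was 6.72 with a pseudocount of 0.1 TPM. Rescaling libraries to a common median ratio moved the median change of all genes up by 0.36 in libraries labelled Setd1bKO and 0.49 in control cells, without ending a call on any member. After that scaling 39.2% and 38.9% of all genes were called higher in libraries labelled Setd1bKO and in control. Such shares depend on the scaling throughout: in 33 of the 39 comparisons the part of the calls that were higher moved by over 10 percentage points.

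**Figure D1:**
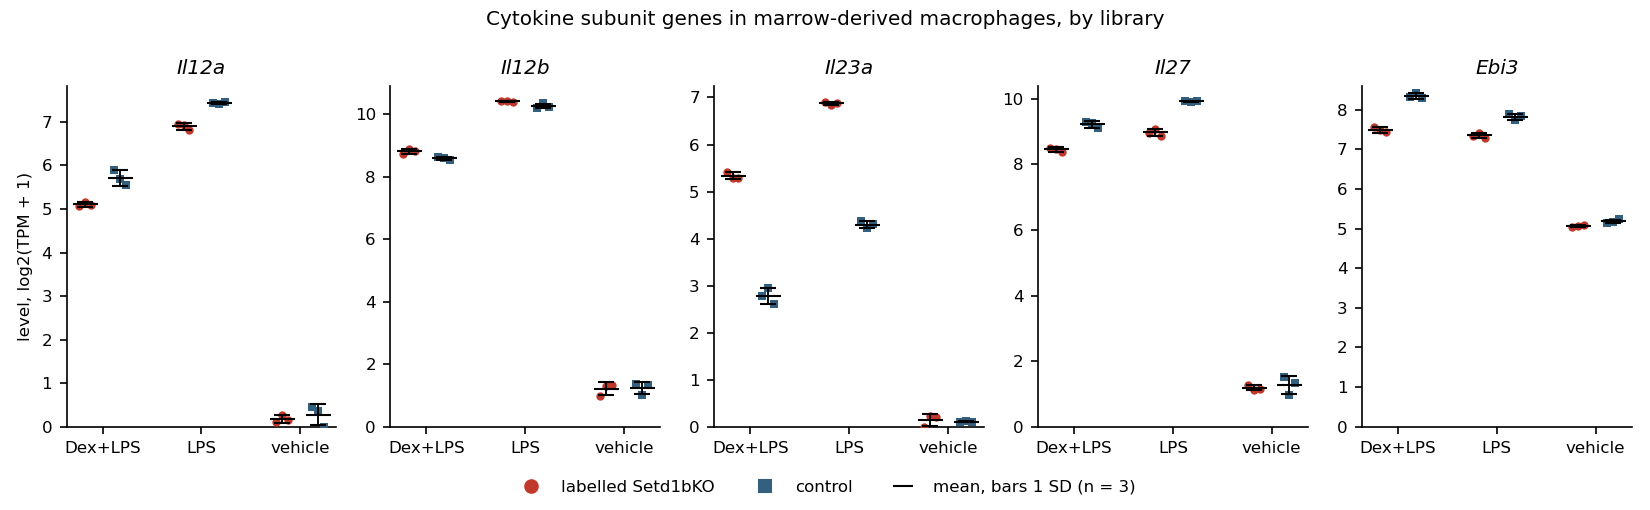
Level of the 5 listed members in marrow-derived macrophages as log2(TPM + 1), by treatment; points are libraries labelled Setd1bKO (circles) or control (squares), with the mean and bars of 1 SD (n = 3). Il23a under LPS and Dex+LPS sits higher in all libraries labelled Setd1bKO than in control, while Il27 and Ebi3 sit lower.

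Dex given before and with LPS cut the IL-12 and IL-23 subunits to about the same share of their LPS level while Ebi3 was not lower. Il12a, specific to IL-12, had 32.5, 34.9 and 32.9 TPM with Dex+LPS, against 123, 122 and 111 TPM with LPS, in libraries labelled Setd1bKO. Control libraries had 58.4, 51.0 and 45.7 TPM of Il12a with Dex+LPS, against 172, 170 and 174 TPM with LPS. Mean Il12a with Dex+LPS was thus 28.1% of its mean with LPS in libraries labelled Setd1bKO and 30.1% in control. The shared subunit Il12b had 424, 477 and 451 TPM with Dex+LPS in libraries labelled Setd1bKO, which is 33.1% of the LPS mean. In control it had 395, 389 and 367 TPM with Dex+LPS, which is 31.2%. Il23a was left at 33.9% and 31.7% of its LPS mean in libraries labelled Setd1bKO and in control. Each of these 3 genes was lower in every Dex+LPS library than in every LPS library of its label, as were 14.3% of all tested genes in libraries labelled Setd1bKO and 17.4% in control.

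The IL-27 subunits parted under Dex. Il27 had 365, 354 and 332 TPM with Dex+LPS in libraries labelled Setd1bKO, 69.6% of the LPS mean. Control cells had 627, 616 and 551 TPM of Il27, 61.8% of theirs. Ebi3 had 321, 344 and 314 TPM with Dex+LPS in control cells, above all 3 LPS libraries there. With Dex+LPS, libraries labelled Setd1bKO had 187, 178 and 171 TPM of Ebi3, close above their LPS libraries. On the log2(TPM + 1) scale, Il12a fell by 1.80 in libraries labelled Setd1bKO and by 1.72 in control, Il12b by 1.60 and 1.68, Il23a by 1.54 and 1.51, and Il27 by 0.52 and 0.70 (limma, adjusted p at most 0.000547). These 4 of 5 members compare with 13.5% of all genes called lower in libraries labelled Setd1bKO and 15.2% in control (23.8% and 26.8% after median-ratio scaling). Ebi3 rose by 0.53 ± 0.05 in control cells (adjusted p = 2.08e-07, 44.8% of genes called higher, 20.6% after median-ratio scaling), and by 0.31 after median-ratio scaling, which moved the median of all genes by -0.19. In libraries labelled Setd1bKO its change was 0.14 ± 0.05 (adjusted p = 0.0259, 39.2% of genes called higher), but -0.05 (adjusted p = 0.613) after median-ratio scaling and -0.04 in the authors' deposited table. The call was also lost with the compared groups alone (adjusted p = 0.0656), and without the first or the third LPS or the first or the second Dex+LPS library labelled Setd1bKO (adjusted p 0.0515 to 0.101). The gene Tsc22d3, a direct glucocorticoid target, was at 60.4 and 90.9 TPM with Dex+LPS in libraries labelled Setd1bKO and in control, against 2.13 and 2.02 TPM with LPS. With vehicle, though, it was at 99.3 and 96.1 TPM.

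The Dex responses were set against each other by the difference of the 2 changes, Setd1bKO-labelled minus control. Ebi3 differed by -0.39 ± 0.07 (adjusted p = 0.00202), where 3.53% of genes were called lower. The intervals of the other differences ran from -0.39 to 0.23 for Il12a, -0.20 to 0.37 for Il12b, -0.27 to 0.22 for Il23a and -0.13 to 0.48 for Il27 (95%, adjusted p 0.566 to 0.945). The ratio of Il27 to Ebi3 in a library, on the TPM scale, was 1.96 ± 0.0266 with Dex+LPS against 3.09 ± 0.108 with LPS in libraries labelled Setd1bKO. In control it was 1.83 ± 0.106 with Dex+LPS against 4.29 ± 0.162 with LPS (SD, n = 3).

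Under LPS the label Setd1bKO went with more Il23a and less Il12a, Il27 and Ebi3. Il23a, specific to IL-23, had 118, 114 and 117 TPM in LPS-treated libraries labelled Setd1bKO, against 19.7, 17.7 and 18.7 TPM in control. With Dex+LPS it had 41.8, 38.3 and 38.1 TPM in libraries labelled Setd1bKO, against 5.86, 6.76 and 5.13 TPM in control. The ratio of means was 6.22-fold with LPS and 6.66-fold with Dex+LPS, so libraries labelled Setd1bKO kept more Il23a under Dex than control libraries reached without it. With vehicle it was at 0, 0.169 and 0.154 TPM in libraries labelled Setd1bKO and at 0.0728, 0.0840 and 0.0774 TPM in control, levels that overlap. The log2 difference was 2.57 ± 0.08 with LPS (adjusted p = 1.46e-12, 29% of genes called higher, 15.8% after median-ratio scaling) and 2.55 with Dex+LPS (adjusted p = 1.76e-12, 23.5%). The LPS response itself, labelled Setd1bKO minus control, was larger by 2.54 ± 0.12 (adjusted p = 1.67e-09, 16.4% of genes called higher).

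Il27 in libraries labelled Setd1bKO was at 52.0% of the control mean with LPS and 58.6% with Dex+LPS, and Ebi3 at 72.1% and 54.8%. Their log2 differences were -0.94 and -0.77 for Il27 and -0.47 and -0.86 for Ebi3 (adjusted p at most 2.31e-05), with 12.4% of genes called lower under LPS and 11.5% under Dex+LPS. Their LPS responses were smaller by 0.85 and 0.36 (differences of -0.85, adjusted p = 0.000472, and -0.36, adjusted p = 0.00143), where 5.43% of genes were called lower. Il12a was at 69.1% of control with LPS and 64.7% with Dex+LPS, with log2 differences of -0.53 (adjusted p = 0.000714) and -0.61 (adjusted p = 0.000292). Both calls were lost with a pseudocount of 0.1 TPM, at log2 differences of -0.53 and -0.62 (adjusted p = 0.298 and 0.243). So was the call on the difference of its LPS response, -0.44 (adjusted p = 0.0444, against 0.733). That last call was also lost when any of 9 libraries was left out (adjusted p up to 0.106; -0.30 without the control vehicle library listed at 0). Il12b differed by 0.15 with LPS and 0.23 with Dex+LPS (adjusted p = 0.234 and 0.0726), and both passed the threshold when only the compared groups were fitted (adjusted p = 0.0277 and 0.0227). With vehicle none of the 5 was called between the labels, where 25.3% of genes were, although Il27 was called lower by 0.24 (log2 difference -0.24, adjusted p = 0.0358) without the second control vehicle library. S100a8, the only neutrophil marker listed, summed to 449 to 521 TPM with Dex+LPS in libraries labelled Setd1bKO against 273 to 303 TPM in control, and to 155 to 180 against 147 to 155 TPM with LPS. The dendritic cell markers Itgax and Cd83 summed to 59.7 to 66.7 TPM against 84.0 to 96.0 TPM with Dex+LPS and to 142 to 160 against 145 to 154 TPM with LPS. The part of these markers, and of the macrophage marker sums above, in the genotype differences was not tested. In bulk samples fewer cells of a type and less RNA per cell cannot be told apart.

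The same levels were also expressed as ratios within each library. The Il12a level over that of Il23a was 0.851 ± 0.0682 with Dex+LPS and 1.02 ± 0.0600 with LPS in libraries labelled Setd1bKO. Control libraries had 8.81 ± 1.21 with Dex+LPS and 9.21 ± 0.457 with LPS, so the labels did not overlap. The shared Il12b stood in excess of both partners together in every treated library. Its level over the sum of Il12a and Il23a was 6.19 ± 0.428 with Dex+LPS and 5.80 ± 0.112 with LPS in libraries labelled Setd1bKO, and 6.70 ± 0.527 with Dex+LPS and 6.46 ± 0.418 with LPS in control.

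**Figure D2:**
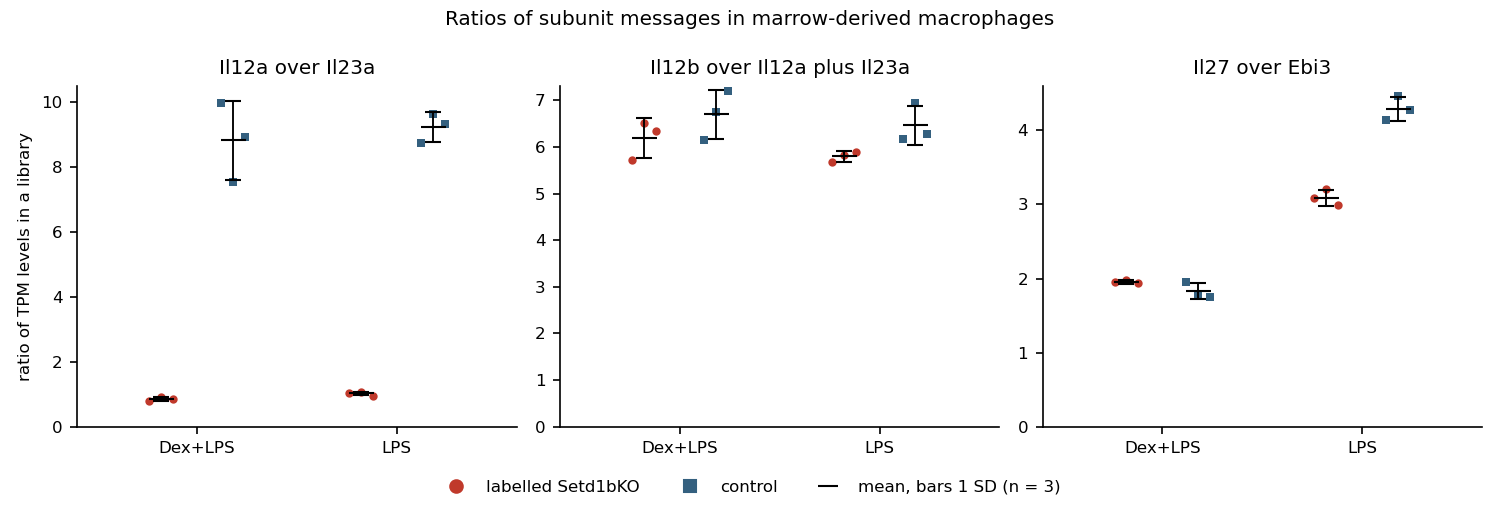
Ratios of TPM levels within each marrow-derived library under Dex+LPS and LPS; points are libraries labelled Setd1bKO (circles) or control (squares), with the mean and bars of 1 SD (n = 3). Il12a over Il23a is near 1.02 with LPS in libraries labelled Setd1bKO and near 9.21 in control, and Il27 over Ebi3 is lower with Dex+LPS than with LPS in both.

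Lists of related genes were counted in the same fits. Of 9 tested receptor and JAK-STAT genes, Dex+LPS over LPS lowered 7 in libraries labelled Setd1bKO and 5 in control, where 13.5% and 15.2% of all genes were called lower. None was called higher, except Il10ra in control with the compared groups alone (0.14, adjusted p = 0.0229). The list medians were -0.29 and -0.22 against 0.15 and 0.18 over all genes. The kinase Jak2 fell by 0.58 and 0.71, and the transcription factor Stat3 by 0.33 and 0.79. Of 15 regulators known to act on the member genes, 7 were lower and 2 higher in libraries labelled Setd1bKO and 6 lower and 4 higher in control. The stress-induced repressor Atf3 fell by 1.16 and 1.70. Bhlhe40, a repressor of Il10 in T cells, fell by 0.96 and 1.02. After median-ratio scaling the higher ones were 0 and 1. Of all genes, 39.2% and 44.8% were called higher before that scaling, and 15.3% and 20.6% after it. Of 8 genes that interleukin 10 induces in macrophages, 6 were lower and 1 higher in each, and no gene was higher after that scaling or, in control, without the second LPS or the first Dex+LPS library. Il1rn, the interleukin 1 receptor antagonist, was at 64.6 against 221 TPM in libraries labelled Setd1bKO and 174 against 1196 TPM in control, and the mRNA-destabilizing Zfp36 fell by 1.41 and 1.49. LPS over vehicle had raised 7 of these 8 genes and lowered 1 in each label. The list medians for LPS were 2.22 and 1.86, where 24.9% and 20.6% of all genes were called higher. The part of interleukin 10 in the fall with Dex was not tested.

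Between the labels under LPS, 5 of the 9 receptor and JAK-STAT genes were lower and 1 higher in libraries labelled Setd1bKO (list median -0.17, all genes 0.10). Stat3 was at 38.2 against 51.3 TPM in control, while the shared receptor chain Il6st was at 32.4 against 18.1 TPM. Among the 15 regulators 7 were higher and 3 lower (list median 0.24), where 29% of all genes were called higher and 12.4% lower (15.8% and 19.9% after median-ratio scaling). Nfil3, a repressor of Il12b in mouse macrophages, was higher by 1.21 ± 0.08, and Maf, an activator of Il10, was lower by 0.76 ± 0.12 (limma, adjusted p = 1.01e-08 and 9.78e-05). Of the 8 genes that interleukin 10 induces, 3 were higher and 2 lower. Il1rn was at 221 TPM in libraries labelled Setd1bKO against 1196 TPM in control, and Socs3, the feedback inhibitor of cytokine receptors, at 415 against 383 TPM without a call.

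In RAW264.7 cells the table with Dex lists the IL-27 pair alone. In the 16 h experiment Il27 had 128, 132 and 132 TPM with LPS in Setd1aDel cells, against 0.542, 0.689 and 0.777 TPM with vehicle. Wild-type cells had 220, 213 and 200 TPM of Il27 with LPS, against 0.428, 0.392 and 0.503 TPM with vehicle. Ebi3 reached about the same LPS level in both genotypes, at 136, 121 and 116 TPM in Setd1aDel cells and 125, 122 and 109 TPM in wild type. It started higher with vehicle in Setd1aDel cells, at 32.5, 33.8 and 32.6 TPM against 15.2, 21.5 and 19.3 TPM in wild type. LPS over vehicle raised Il27 by 6.30 and Ebi3 by 1.88 in Setd1aDel cells (18.4% of genes called higher), and by 7.20 and 2.62 in wild type (17.4%; 40.6% and 38.8% after median-ratio scaling). The rise was smaller in Setd1aDel cells by 0.90 for Il27 and 0.74 for Ebi3 (differences of -0.90 ± 0.08, adjusted p = 5.65e-07, and -0.74 ± 0.13, adjusted p = 0.000349), where 20.3% of genes were called lower.

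With vehicle both genes were higher in Setd1aDel cells than in wild type, and with LPS Il27 was lower while Ebi3 was not called different. With vehicle Ebi3 was higher in Setd1aDel cells by 0.80 (adjusted p = 3.72e-06, 15.3% of genes called higher). Il27 was higher by 0.21 (adjusted p = 0.00908), by 0.50 with a pseudocount of 0.1 TPM, and by 0.16 without a call (adjusted p = 0.0515) when the third Setd1aDel vehicle library was left out. With LPS Il27 was lower in Setd1aDel cells by 0.69 (log2 difference -0.69, adjusted p = 9.7e-08, 42.4% of genes called lower), and Ebi3 differed by 0.06 (interval -0.13 to 0.26, adjusted p = 0.574). Macrophage markers summed to 11850 to 12136 TPM in Setd1aDel cells against 4497 to 4725 TPM in wild type under Dex+LPS, to 11676 to 13434 TPM in Setd1aDel cells against 4958 to 5315 TPM in wild type under LPS, and to 23436 to 24558 against 2964 to 3428 TPM with vehicle. S100a8, a neutrophil marker, was at 317 to 384 TPM in Setd1aDel cells against 20.0 to 22.1 TPM in wild type under Dex+LPS, at 98.5 to 106 against 4.91 to 5.45 TPM under LPS and at 2.19 to 2.57 against 2.22 to 4.07 TPM with vehicle. The dendritic cell markers Itgax and Cd83 summed to 58.3 to 62.6 TPM in Setd1aDel cells against 98.3 to 102 TPM in wild type under Dex+LPS, to 168 to 176 against 267 to 268 TPM under LPS and to 13.8 to 15.5 against 27.9 to 30.1 TPM with vehicle. With vehicle in the 6 h experiment, macrophage markers summed to 12108 to 12953 TPM (Setd1aDel) and 9737 to 10051 TPM (wild type). Under LPS there they summed to 7548 to 8019 TPM (Setd1aDel) and 8455 to 8611 TPM (wild type). The part of these markers in the genotype differences was not tested.

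Dex for 16 h lowered both genes under LPS in RAW264.7 cells, Ebi3 included. Il27 had 82.3, 82.4 and 77.9 TPM with Dex+LPS in Setd1aDel cells, 61.9% of the LPS mean. In wild type it had 91.9, 107 and 101 TPM, 47.4% of the LPS mean. Ebi3 had 95.2, 95.1 and 97.2 TPM with Dex+LPS in Setd1aDel cells, 77.1% of the LPS mean. In wild type it had 67.8, 73.9 and 70.0 TPM, 59.4%. The log2 changes were -0.69 for Il27 and -0.37 for Ebi3 in Setd1aDel cells (14.9% of genes called lower), and -1.07 for Il27 and -0.74 for Ebi3 in wild type (12.3%; 21.6% and 23.3% after median-ratio scaling). The Il27 response was weaker in Setd1aDel cells by 0.39 ± 0.08 (adjusted p = 0.00866, 2.88% of genes called higher), a call lost with a pseudocount of 0.1 TPM (adjusted p = 0.0852). For Ebi3 the difference was 0.37 ± 0.13 (adjusted p = 0.0792), which passed the threshold after median-ratio scaling (0.42, adjusted p = 0.0301), with the compared groups alone (adjusted p = 0.026), and without the first Setd1aDel LPS library (0.44, adjusted p = 0.046). With Dex+LPS, Setd1aDel cells had less Il27 by 0.30 (log2 difference -0.30, adjusted p = 0.000424; -0.145 after median-ratio scaling, which moved the median of all genes by 0.14) and more Ebi3 by 0.44 (adjusted p = 0.000629), where 47.6% of all genes were called lower and 17% higher (30.1% and 30.4% after that scaling).

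**Figure D3:**
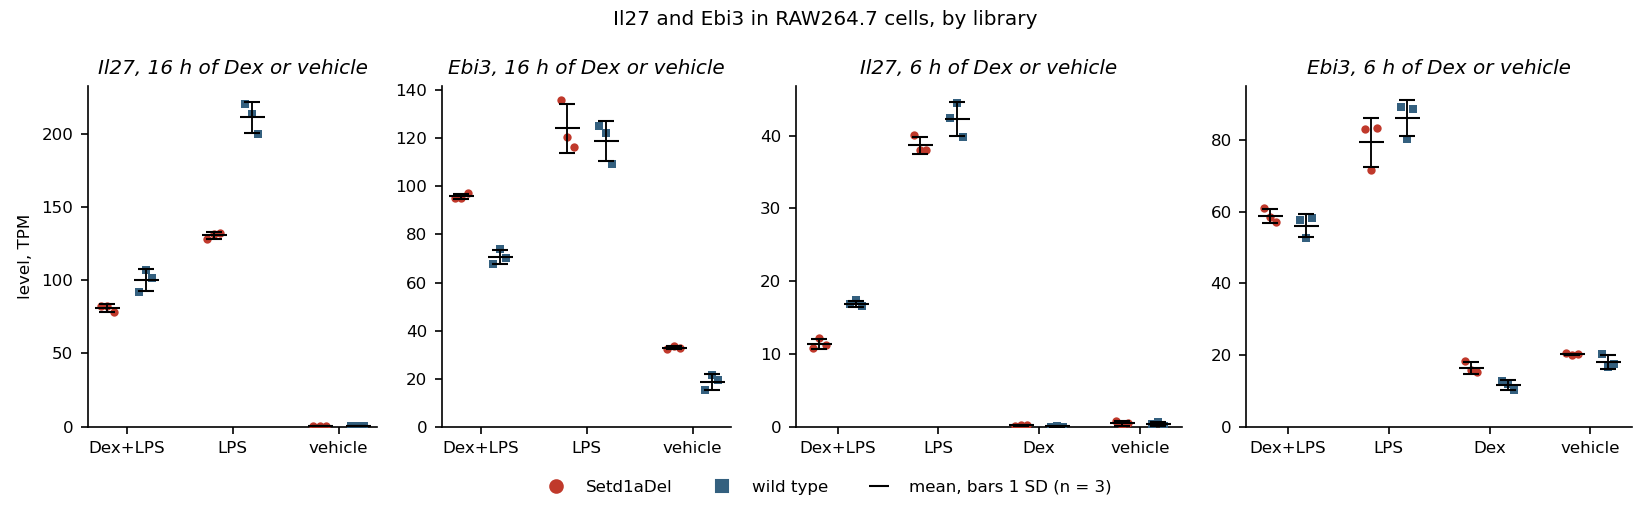
TPM of Il27 and Ebi3 in RAW264.7 cells in the 16 h and 6 h experiments, by treatment; points are Setd1aDel (circles) or wild-type (squares) libraries, with the mean and bars of 1 SD (n = 3). Both genes are lower with Dex+LPS than with LPS in each genotype and experiment, and the vehicle levels of Il27 stay under 1 TPM.

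The 6 h experiment had lower LPS levels of Il27 in the same table, and the genotypes were closer. Il27 had 40.0, 38.0 and 38.0 TPM with LPS in Setd1aDel cells and 42.4, 44.5 and 39.9 TPM in wild type. With vehicle it was at 0.749, 0.123 and 0.469 TPM in Setd1aDel cells and 0.407, 0.582 and 0.122 TPM in wild type. Ebi3 had 83.1, 71.5 and 83.2 TPM with LPS in Setd1aDel cells and 89.2, 80.4 and 88.5 TPM in wild type, against vehicle levels of 20.4, 20.0 and 20.2 TPM in Setd1aDel cells and 20.2, 16.7 and 17.4 TPM in wild type. LPS raised Il27 by 4.80 and Ebi3 by 1.92 in Setd1aDel cells (20.4% of genes called higher) and by 4.99 and 2.19 in wild type (19.5%). Neither rise was called different between the genotypes, where 5.6% of genes were (Il27 -0.19, interval -0.56 to 0.17; Ebi3 -0.27, interval -0.53 to -0.02, adjusted p = 0.233). Levels with LPS and with vehicle were not called different either, where 21.5% and 22.2% of genes were.

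Dex and LPS given together for 6 h left Il27 at 10.8, 12.1 and 11.3 TPM in Setd1aDel cells, 29.4% of the LPS mean. Wild-type cells had 16.9, 17.4 and 16.5 TPM, 40.0% of theirs. Ebi3 had 60.9, 58.5 and 57.2 TPM in Setd1aDel cells, 74.2% of the LPS mean. In wild type it had 57.7, 52.6 and 58.1 TPM, 65.2%. All 4 falls were called (log2 changes of -1.68 and -0.42 in Setd1aDel cells, with 10.7% of genes called lower, and of -1.27 and -0.61 in wild type, with 10.6%). With Dex+LPS Il27 was lower in Setd1aDel cells than in wild type by 0.53 (log2 difference -0.53, adjusted p = 0.0032, 13.1% of genes called lower). That call was lost with a pseudocount of 0.1 TPM (-0.57, adjusted p = 0.319). The difference of its Dex response was -0.41 ± 0.17 (adjusted p = 0.19, 5.29% of genes called), and passed the threshold with the compared groups alone (adjusted p = 0.0269). For Ebi3 that difference was 0.19 (interval -0.07 to 0.44). S100a8 was at 130 to 139 TPM in Setd1aDel cells against 187 to 206 TPM in wild type under Dex+LPS, and macrophage markers summed to 7228 to 7583 against 6490 to 6755 TPM, and their part in the genotype difference was not tested.

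Dex without LPS also lowered resting Ebi3. It had 18.4, 15.8 and 15.1 TPM with Dex alone in Setd1aDel cells and 12.8, 11.8 and 10.1 TPM in wild type, below the vehicle libraries of each. The log2 change was -0.60 in wild type (adjusted p = 1.6e-05, 24.8% of genes called lower). In Setd1aDel cells it was -0.29 (adjusted p = 0.0163, 18.3%), a call lost without the second or the third Setd1aDel Dex library (adjusted p = 0.0579 and 0.08). Between the genotypes under Dex, Ebi3 was higher in Setd1aDel cells by 0.47 (adjusted p = 0.000787, 6.2% of genes called higher). Il27 with Dex alone was at 0.131, 0.212 and 0.246 TPM in Setd1aDel cells and 0, 0.105 and 0 TPM in wild type, too near 0 to rank. Its change was -0.25 in Setd1aDel cells (adjusted p = 0.137; -0.42, adjusted p = 0.00763, without the second vehicle library) and -0.39 in wild type (adjusted p = 0.0177), where the call was lost without the first or the second vehicle library or the first or the third Dex library (adjusted p 0.0541 to 0.108), and the value was -1.74 with a pseudocount of 0.1 TPM. LPS still raised both genes over Dex alone, Il27 by 3.37 and Ebi3 by 1.78 in Setd1aDel cells (22.3% of genes called higher) and by 4.12 and 2.19 in wild type (21.4%). For Il27 these were 5.30 and 7.07 with a pseudocount of 0.1 TPM.

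The Dex responses under LPS in the 16 h and the 6 h experiment were compared in 1 fit over their 42 libraries. In Setd1aDel cells the fall of Il27 was smaller in the 16 h experiment by 1.00 ± 0.14 (adjusted p = 4.63e-06, 8.13% of genes called higher; 1.06 with a pseudocount of 0.1 TPM, adjusted p = 0.0909). In wild type the difference was 0.20 (interval -0.10 to 0.49, 13.5% of genes called). For Ebi3 the differences were 0.05 in Setd1aDel cells (interval -0.21 to 0.31) and -0.13 in wild type (interval -0.40 to 0.13). The length of Dex and the experiment cannot be told apart. The change of sign of Ebi3 between cell types, higher in control marrow cells and lower in RAW264.7 cells, lies between tables normalized separately and was not tested.

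**Figure D4:**
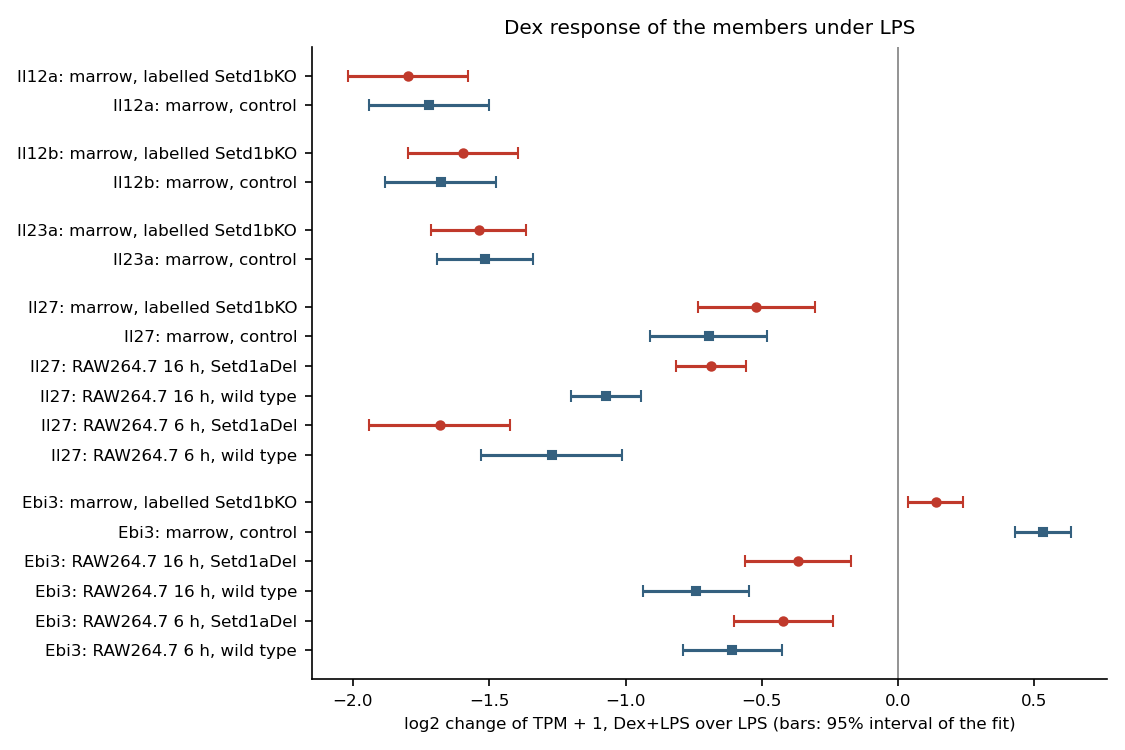
Log2 change of TPM + 1 with Dex+LPS over LPS for each member and cell population; circles are Setd1bKO-labelled or Setd1aDel cells, squares control or wild type, and bars the 95% interval of the limma fit. Il12a, Il12b, Il23a and Il27 lie left of 0 throughout, and Ebi3 lies right of 0 in marrow cells and left of it in RAW264.7 cells; after median-ratio scaling the Ebi3 value of the libraries labelled Setd1bKO is -0.05.

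Of 8 tested genes that interleukin 10 induces in macrophages, 8 were lower with 16 h of Dex in Setd1aDel RAW264.7 cells and 7 in wild type, with list medians of -0.93 and -0.98 against 0.06 and 0.09 over all genes. Il1rn was at 107 against 491 TPM with LPS in Setd1aDel cells and at 44.3 against 224 TPM in wild type. Etv3, a transcriptional repressor, fell by 1.04 and 1.11. LPS over vehicle had raised 8 of these genes in Setd1aDel cells, and raised 7 and lowered 1 in wild type. The list medians for LPS were 2.73 and 2.72, where 18.4% and 17.4% of all genes were called higher. The part of interleukin 10 in the fall with Dex was not tested. Of 13 regulators 9 were lower with Dex in each genotype, where 14.9% of all genes in Setd1aDel cells and 12.3% in wild type were called lower. None was called higher, except 1 in Setd1aDel cells without the first LPS library and Nr3c1, the glucocorticoid receptor, in wild type with the compared groups alone (0.46, adjusted p = 0.0446). The lower ones included Atf3, by 1.49 and 1.99, and the NF-kB subunit Rel, by 0.78 and 0.92. Of 7 receptor and JAK-STAT genes 3 were lower in each, among them Stat3, by 0.63 in Setd1aDel cells and 0.51 in wild type. The receptor chain Il6st was higher by 0.66 and 0.83.

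Interleukin 10 appears in the IFNB1 experiment, whose values carry 1 decimal and whose column headers name no unit (they sum to between 894929 and 905329 per library and were treated as TPM). IFNB1 added to LPS raised Il10 and Il27 in both genotypes and left Ebi3 close to its LPS level. Il10 had 27.7, 25.2 and 26.4 TPM with IFNB1+LPS in Setd1aDel cells, against 1.4, 1.5 and 1.1 TPM with LPS. In wild type it had 1.5, 1.4 and 2.1 TPM with IFNB1+LPS, against 0, 0.1 and 0 TPM with LPS. The range in Setd1aDel cells with LPS alone overlapped that in wild type with IFNB1+LPS. The log2 change was 3.56 ± 0.12 in Setd1aDel cells (adjusted p = 9.52e-10, 10.5% of genes called higher, 21.9% after median-ratio scaling) and 1.36 ± 0.12 in wild type (adjusted p = 6.52e-06, 9.5%), with 3.79 in wild type at a pseudocount of 0.1 TPM. The difference of these responses was therefore set by the pseudocount, at 2.20 ± 0.16 with 1 TPM (adjusted p = 1.67e-05, 3.31% of genes called higher) and 0.43 with 0.1 TPM (adjusted p = 0.507). The authors' deposited table gives log2 fold changes of 4.54 (SE 0.286) in Setd1aDel cells and 5.25 (SE 1.05) in wild type. The direct comparison of genotypes depended less on the pseudocount with IFNB1+LPS, where wild type stood at 1.4 to 2.1 TPM. There Il10 was 15.9-fold higher in Setd1aDel cells by the ratio of means. The log2 difference, which the pseudocount of 1 TPM still shortens, was 3.37 (adjusted p = 1.38e-09, 15.8% of genes called higher). With LPS alone it was 1.17 (adjusted p = 1.03e-05, 17.7%), or 3.50 with a pseudocount of 0.1 TPM.

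Il27 had 133.3, 121.5 and 110.0 TPM with IFNB1+LPS in Setd1aDel cells, against 15.9, 16.2 and 18.5 TPM with LPS. In wild type it had 46.6, 43.1 and 43.3 TPM with IFNB1+LPS, against 16.0, 16.5 and 16.5 TPM with LPS. With LPS Il27 was not called different between genotypes (limma, 0.04, adjusted p = 0.691). With IFNB1+LPS it was higher in Setd1aDel cells by 1.43 (adjusted p = 3.74e-08, 15.8% of genes called higher). The log2 change with IFNB1 was 2.78 ± 0.07 in Setd1aDel cells and 1.39 ± 0.07 in wild type, and the responses differed by 1.39 ± 0.10 (adjusted p = 1.65e-05). Its partner Ebi3 had 68.7, 63.8 and 64.4 TPM with IFNB1+LPS in Setd1aDel cells, against 62.3, 67.2 and 66.4 TPM with LPS. Wild-type cells had 48.5, 52.2 and 57.0 TPM of Ebi3 with IFNB1+LPS, against 60.2, 57.3 and 60.1 TPM with LPS. The change was 0.01 in Setd1aDel cells (adjusted p = 0.927; 0.19, adjusted p = 0.0255, after median-ratio scaling, which moved the median of all genes by 0.17) and -0.17 in wild type (adjusted p = 0.0392, 23.5% of genes called lower), a call lost after that scaling (-0.09, adjusted p = 0.347) and without filtering (adjusted p = 0.0571). It was also lost with the compared groups alone (adjusted p = 0.0696) and without any wild-type library except the second LPS and the third IFNB1+LPS one (adjusted p 0.0888 to 0.137). With IFNB1+LPS Ebi3 was higher in Setd1aDel cells than in wild type by 0.32 (adjusted p = 0.000734), and with LPS it differed by 0.14 (adjusted p = 0.0713), a difference called after median-ratio scaling (0.18, adjusted p = 0.0367) and with the compared groups alone (adjusted p = 0.0345). The Il27 level over that of Ebi3 was 1.85 ± 0.125 with IFNB1+LPS against 0.258 ± 0.0190 with LPS in Setd1aDel cells, and 0.849 ± 0.103 against 0.276 ± 0.0112 in wild type.

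Il23a was low throughout, at 0.8, 0.4 and 0.3 TPM with IFNB1+LPS against 1.2, 1.5 and 1.4 TPM with LPS in Setd1aDel cells. Wild-type cells had 0.4, 0.7 and 0.4 TPM with IFNB1+LPS against 0.7, 0.2 and 0.9 TPM with LPS. It fell by 0.67 in Setd1aDel cells (adjusted p = 0.0117, 43.6% of genes called lower; -1.37 with a pseudocount of 0.1 TPM, and -1.32 with an adjusted p of 0.0987 in the authors' deposited table). In wild type the change was -0.07 (adjusted p = 0.805), and the difference of the responses was -0.60 (interval -1.19 to -0.01, adjusted p = 0.172). With LPS it was higher in Setd1aDel cells by 0.59 (adjusted p = 0.0269), a call lost with a pseudocount of 0.1 TPM (1.23, adjusted p = 0.0579) and without the second wild-type LPS library (0.40, adjusted p = 0.101). Il12b, the shared partner, was listed at 0 in all libraries of this experiment except for 0.1 TPM in the first Setd1aDel library with IFNB1+LPS, and was not tested. Macrophage markers summed to 9073 to 9149 TPM with IFNB1+LPS and 11190 to 11377 TPM with LPS in Setd1aDel cells, and to 6492 to 6523 TPM with IFNB1+LPS and 7142 to 7249 TPM with LPS in wild type. The 5 listed neutrophil markers summed to 9.3 to 12.9 TPM with IFNB1+LPS and 6.4 to 7.9 TPM with LPS in Setd1aDel cells, and to 2.8 to 4.3 TPM and 3.0 to 3.2 TPM in wild type. The 7 listed dendritic cell markers summed to 4.2 to 5.9 TPM with IFNB1+LPS and 5.0 to 6.4 TPM with LPS in Setd1aDel cells, and to 8.5 to 15.9 TPM and 6.7 to 10.6 TPM in wild type. The part of these markers in the genotype differences was not tested.

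**Figure D5:**
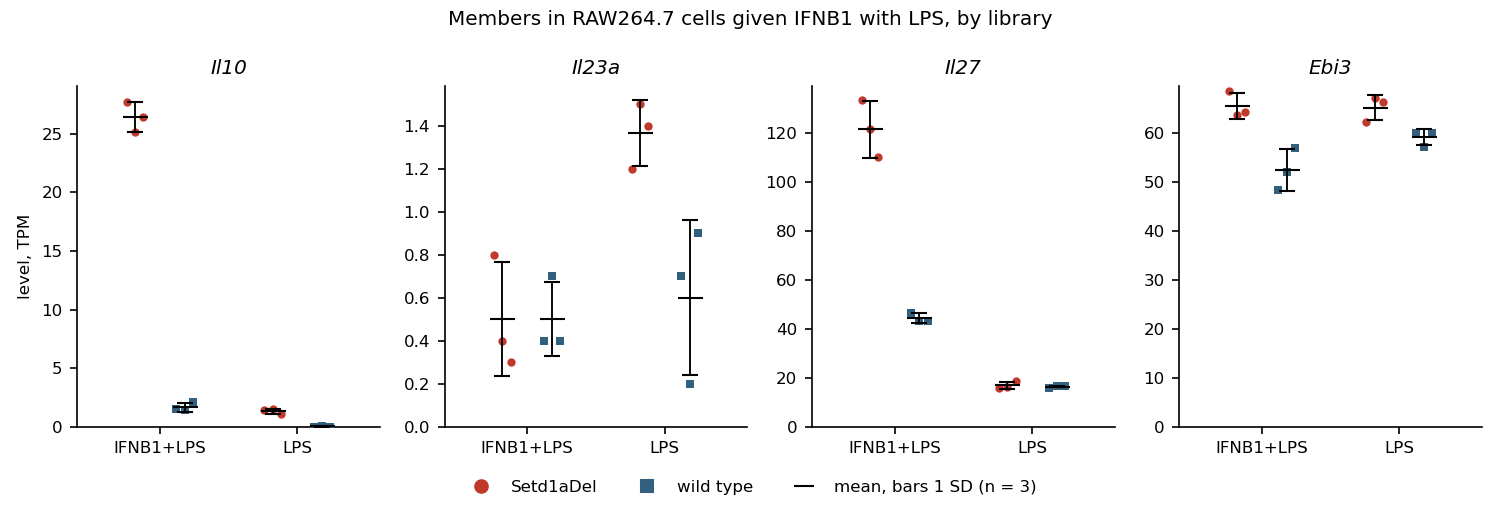
TPM of Il10, Il23a, Il27 and Ebi3 in RAW264.7 cells with IFNB1+LPS or LPS; points are Setd1aDel (circles) or wild-type (squares) libraries, with the mean and bars of 1 SD (n = 3). Il10 and Il27 are highest in the 3 Setd1aDel libraries with IFNB1+LPS, and Ebi3 stays between 48.5 and 68.7 TPM.

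Of 7 tested genes that interleukin 10 induces, 6 rose and 1 fell with IFNB1 in Setd1aDel cells (0 fell after median-ratio scaling) and 4 rose and 1 fell in wild type, with list medians of 0.98 and 0.30 against -0.18 and -0.09 over all genes. Over all genes, 10.5% were called higher and 43.6% lower in Setd1aDel cells (21.9% and 19.8% after that scaling), and 9.5% and 23.5% in wild type. Il1rn was at 218 against 52.6 TPM with LPS in Setd1aDel cells and at 8.53 against 2.67 TPM in wild type. Bcl3, a nuclear cofactor of NF-kB, was at 54.8 against 14.1 TPM in Setd1aDel cells, and Socs3 at 368 against 186 TPM. The response was larger in Setd1aDel cells for 6 of the 7, where 3.31% of all genes were called higher (5.69% after median-ratio scaling). The differences were 1.58 for Bcl3, 0.85 for Zfp36, 0.66 for Il1rn and 0.54 for Socs3 (limma, adjusted p 1.02e-05 to 0.0162). The Il1rn call was lost with a pseudocount of 0.1 TPM (0.42, adjusted p = 0.103). The part of interleukin 10 in the rise with IFNB1, or in these differences, was not tested. Of 13 regulators 6 rose and 2 fell in Setd1aDel cells (11 and 1 after median-ratio scaling), and 6 rose and 1 fell in wild type. Irf1, an interferon-induced activator of Il27 and Il12a, rose by 1.69 and 0.49, Atf3 by 1.36 and 0.77 and Nfkbiz, a coactivator of NF-kB, by 1.16 and 0.78. Bhlhe40 fell by 0.73 and 0.82. Of 7 receptor and JAK-STAT genes 3 rose and 3 fell in Setd1aDel cells (1 fell after that scaling), and 4 rose and 1 fell in wild type. Stat3, the transcription factor downstream of the IL-10 receptor, was at 66.7 against 40.2 TPM with LPS in Setd1aDel cells and at 68.6 against 53.3 TPM in wild type.

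Across all groups in which a member is listed, Il27 was highest in control marrow cells with LPS (967 ± 15.9 TPM) and averaged under 1 TPM in the RAW264.7 groups without LPS, which are not ranked. Ebi3 was highest in control marrow cells with Dex+LPS (326 ± 15.8 TPM) and lowest in wild-type RAW264.7 cells with Dex alone (11.6 ± 1.35 TPM). Setting groups of different tables in 1 order rests on TPM from tables made separately. Between group means of 70.6 and 52.6 TPM, neighbours of Ebi3 in that order overlapped except Setd1aDel and wild-type cells with LPS in the IFNB1 experiment. In marrow cells the 4 groups with LPS lay apart from each other for Il12a, Il12b, Il23a, Il27 and Ebi3, as they did for 10.3% of all tested genes.

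The genes whose log2(TPM + 1) followed a member most closely over the 18 marrow-derived libraries differed between subunits. For Il12a they were Rsad2 (Pearson r = 0.998), Mx2 and Cmpk2, and for Il12b they included Adar (r = 0.998) and Il1a. For Il23a they were Cxcl5 (r = 0.992), Btg1 and Micall2, for Il27 Gbp2 (r = 0.999), Gm49342 and Gbp3, and for Ebi3 Itgal (r = 0.993), Edn1 and Ms4a6d. Among the members, Il12a and Il12b had an r of 0.991, Il27 and Ebi3 of 0.974, and Il23a and Ebi3 the lowest, 0.7345. Over the 42 RAW264.7 libraries with Dex, Il27 was closest to Kdm6b (r = 0.9945), Nfkb1 and Il1a, and Ebi3 to Nfkb1 (r = 0.979), Bcl2a1d and Rassf4. These points share treatment groups and libraries, so the correlations are descriptions.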

How the data were processed

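RNA-seq of mouse macrophages was analysed from 3 tables of TPM per gene. Per the submitters' processing notes, the authors used Salmon 0.10.2, DESeq2 and R 3.6.0 on GRCm38.p6/mm10. The deposited TPM values are named so in 2 tables, and in the interferon table the unit was inferred from the values. The authors' deposited log2 fold changes and adjusted p-values are quoted only where named, and how each was made beyond these tools is not stated. Tests used limma 3.58.1 in R 4.3.3 on log2(TPM + 1), with 1 mean per group of an experiment, a trended prior and Benjamini-Hochberg adjustment over all genes tested (at least 1 TPM in at least 3 libraries), called at 0.05. The tests were checked on simulated data. The simulated noise was normal, equal in all groups for a gene and independent between libraries, so unequal spreads and technical replicates were not checked. Tables were normalized separately, so tests stay within a table. Depth is unknown. The members and lists were chosen with earlier results of these data known. The text names the members, up to 4 called list genes with the largest change and up to 2 of the most expressed not called, and the 3 genes most correlated with a member. Some genes this rule picks are not reported here. Alternatives were a pseudocount of 0.1 TPM, no filter, median-of-ratios scaling (libraries rescaled to a common median ratio), a replicate block, only the compared groups, and leaving out each library.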

Additional observations from a re-analysis of the deposited data

Results flagged for a closer look

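These 11 results stood out because the effect of a treatment differed between genotypes or experiments by a test of the difference itself (limma, log2(TPM + 1) scale). In marrow-derived cells the LPS response of libraries labelled Setd1bKO minus that of control was 2.54 for Il23a, -0.85 for Il27, -0.36 for Ebi3 and -0.44 for Il12a, the last lost with a pseudocount of 0.1 TPM (adjusted p = 0.733). The Dex response of Ebi3 under LPS differed by -0.39 between those labels. In the 16 h RAW264.7 experiment the LPS response of Setd1aDel cells minus that of wild type was -0.90 for Il27 and -0.74 for Ebi3. In the 6 h experiment these differences were -0.19 and -0.27 and neither was called (adjusted p = 0.62 and 0.233). The fall of Il27 with Dex under LPS was smaller in Setd1aDel cells by 0.39 in the 16 h experiment. That call was lost with a pseudocount of 0.1 TPM (adjusted p = 0.0852). With IFNB1 the response of Setd1aDel cells exceeded that of wild type by 2.20 for Il10, which was 0.43 (adjusted p = 0.507) with a pseudocount of 0.1 TPM, and by 1.39 for Il27. The fall of Il27 with Dex under LPS in Setd1aDel cells was smaller by 1.00 in the 16 h than in the 6 h experiment. This call, too, was lost with a pseudocount of 0.1 TPM (adjusted p = 0.0909).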

How the results depend on the processing

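Of 115 member tests 80 were called, and 67 of these kept their call and direction under all alternatives run. Of 1403 member values under an alternative, 1352 stayed on their side of the threshold (898 called ones with their direction, and 454 uncalled ones, of which 21 changed sign), 39 lost a call, 11 gained one and 1 reversed. Median-of-ratios scaling reversed Ebi3 with Dex+LPS over LPS in libraries labelled Setd1bKO (-0.0458), and among list genes Spi1 and Il4ra in that comparison (-0.0555, adjusted p = 0.338, and -0.1424, adjusted p = 0.0431) and Il10ra and Spi1 with IFNB1 in Setd1aDel cells (0.041, adjusted p = 0.424, and 0.1536, adjusted p = 0.032). This scaling moved the median change of all genes by -0.16 with Dex+LPS over LPS in libraries labelled Setd1bKO and by 0.17 with IFNB1 in Setd1aDel cells. The part of these shifts in the reversals was not tested. Fitting only the compared groups, with fewer libraries behind the spread, gave 305 in place of 475 called genes for the difference of the 6 h Dex responses, 1356 in place of 2350 for Setd1aDel over wild type with Dex+LPS at 6 h, and 668 in place of 1219 with Dex alone. Leaving out 1 library gave 278 to 522 called genes for the difference of the 6 h Dex responses, and 553 to 1876 in place of 1237 for that of the IFNB1 responses, the highest without the third Setd1aDel library with IFNB1+LPS. Replicate numbers did not pair the libraries: in 0 of 30 comparisons did all same-numbered pairs correlate above 0.1 (90 correlations, -0.3018 to 0.2776). The replicate block ended the call on Ebi3 with IFNB1 in wild type (adjusted p = 0.0523) and changed no other member call. Unknown depth leaves values under 1 TPM, such as Il10 and Il23a in wild-type RAW264.7 cells, without a counting error.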
